A study of Mus musculus with 6 samples.

Results

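The 35 genes described here encode enzymes of amino acid breakdown and of the urea cycle in mouse liver. They were chosen by symbol, and each of the 35 symbols matched 1 Ensembl identifier among the 23474 genes of the deposited table. Levels are FPKM, fragments scaled to transcript length and to library size, so they are per length and can be compared between genes. They are levels of mRNA and not of protein or enzyme activity. All mice were C57BL/6J males that started a high-fat diet at 5 weeks of age and stayed on it for 12 weeks. The HFD group received that diet alone, and the BT group received it mixed with an extract of the herbal medicine Bangpungtongseong-san at 1.5% by weight. The study held 20 mice, 10 in each of 2 groups, and 3 HFD and 3 BT libraries from 17-week-old livers were analysed. Both groups ate the high-fat diet, so no value below is set against lean mice. Whether 1 mouse or several went into a library is not stated in the labels, and p-values therefore measure the spread between these libraries, which may be technical.

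Breakdown of most amino acids starts with the removal of nitrogen, which transaminases pass to glutamate. Glutamate dehydrogenase and glutaminase release it as ammonia, and the urea cycle joins ammonia and the nitrogen of aspartate into urea for excretion. The carbon skeletons enter glucose, ketone or energy metabolism, each amino acid by its own route. The liver carries the whole urea cycle and is the main site of methionine, phenylalanine, tyrosine, tryptophan and histidine breakdown, while the first step of branched-chain amino acid breakdown lies largely outside it.

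Depth, read from the smallest values of the table, was about 13.8 to 15.8 M fragments per library, which is a rough estimate. Hepatocyte markers were high in all 6 libraries, except that Alb, the albumin gene, is listed at 0 in HFD replicate 3 although it stood at 22791 FPKM or more elsewhere. The mitochondrial gene mt-Co1 is also listed at 0 there and stood at 44334 FPKM or more elsewhere, so a listed 0 can be a failed estimate. Without Alb the other 7 hepatocyte markers summed to 20718 to 25761 FPKM with HFD and 17459 to 18594 FPKM with BT, and 1 of them, Ttr, the gene of the plasma carrier transthyretin, fell by 0.76 ± 0.14 on the log2 scale (SE, limma, adjusted p = 0.0157). None of the 5 cholangiocyte markers averaged 1 FPKM, so none of these could be tested. The markers tested numbered 7 for Kupffer cells and 5 each for endothelial, stellate and erythroid cells. For neutrophils 2 were tested, and for lymphocytes and adipocytes only 1 each. None of the markers tested in these lists passed the threshold. The summed levels of these lists overlapped between the diets except for the 6 stellate cell markers, at 89.5 to 134 FPKM with HFD and 67.5 to 86.8 FPKM with BT. Most of that sum was Dcn, at 74.2, 83.5 and 109 FPKM with HFD and 56.5, 70.5 and 71.2 FPKM with BT. Reln, Col1a1, Des and Pdgfrb each overlapped between the diets. The stellate marker Lrat, the endothelial Clec4g and the neutrophil Ly6g are listed at 0 in all libraries. Pancreatic acinar and kidney tubule markers reached at most 0.265 FPKM in sum. The part of any of these cell types in the results below was not tested. The library codes in the labels share a letter within each diet and differ between the diets, so a difference between sets of libraries cannot be told apart from diet.

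With BT, the mRNAs of 4 of the 35 enzymes were higher and that of 1 was lower. Ahcy, Kmo, Ftcd and Got2 rose by 0.41 to 0.61 on the log2(FPKM + 1) scale and Sds fell by 0.74. They act in different routes: methionine, tryptophan, histidine, aspartate and serine. The test was limma on log2(FPKM + 1), with Benjamini-Hochberg adjustment over the 10476 genes that averaged 1 FPKM or more, and a threshold of 0.05. All 35 members passed that filter. The same test called 13.3% of all genes, 6.01% higher and 7.33% lower with BT, so the 5 of 35 is close to the background and is not a result about the group. The median change of the members was 0.15, against 0.07 for all genes tested, and 26 of the 35 changes were above 0, as were 6201 of the 10476 over all genes. Scaling shifted both medians together: they were 0.24 and 0.15 under TPM scaling, which gives every library an equal total, and 0.08 and 0.01 under median-of-ratios scaling. It also shifted the calls of members, to 7 higher and none lower under the first and to 1 in each direction under the second. The TPM totals lack Alb and mt-Co1 in HFD replicate 3 alone. With totals taken over the genes above 0 in all 6 libraries, a setting chosen after seeing the data, 10 members were higher and 1 was lower, beside 1348 genes higher and 536 lower, or 18% of all genes tested. The medians were then 0.29 and 0.20.

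The calls rested on few libraries. None of the 5 genes passed without BT replicate 1 (adjusted p 0.0902 to 0.14 by limma) or without BT replicate 2 (0.0658 to 0.133), 1 passed without HFD replicate 2, 2 without BT replicate 3, and 3 of the 5 without HFD replicate 3. Over all genes the share called was 1.65% without BT replicate 1 and 3.13% without BT replicate 2. The signs of all 5 changes were the same in each of these fits. In 12 members all 3 BT values lay above all 3 HFD values, and in 2 members they lay below. Among all genes tested 23.2% and 16.1% did so, and 39.3% separated one way or the other.

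**Figure D1:**
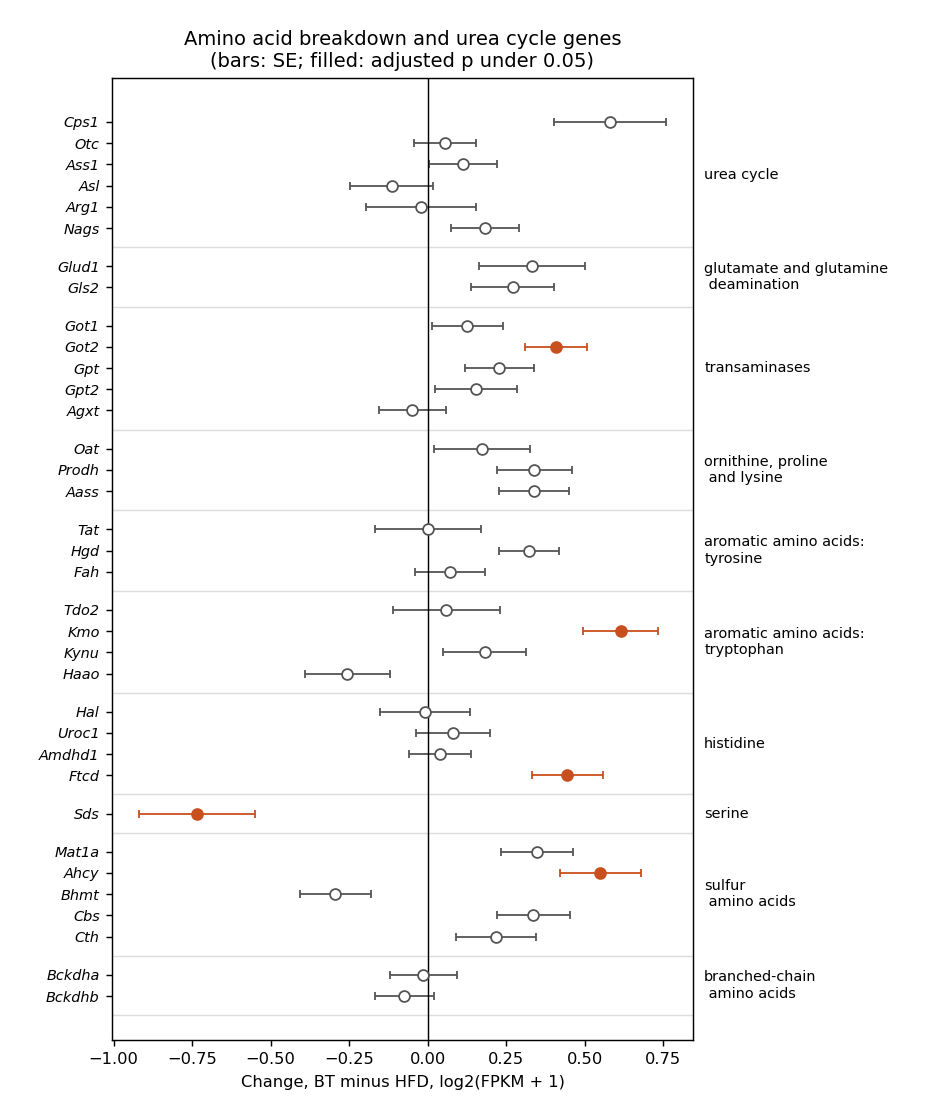
Change of each of the 35 members between BT and HFD on the log2(FPKM + 1) scale, grouped by route, with limma's SE as bars; filled points have an adjusted p under 0.05. Got2, Kmo, Ftcd and Ahcy lie to the right of 0 and Sds to the left, while the urea cycle and branched-chain members have open points only.

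The members are abundant liver mRNAs. Their mean level with HFD ran from 30.4 FPKM for Nags to 2252 FPKM for Bhmt, with a median of 184 FPKM. Bhmt, Oat and Mat1a were the 3 most abundant with HFD. The lowest member by mean over all libraries, Sds, was still above 80.7% of the genes tested. At the estimated depth the smallest member value of any library corresponds to about 397 fragments. How much counting error adds to the spread between libraries was not tested. That spread was wider with HFD: the coefficient of variation was larger in HFD than in BT for 28 of the 35 members, with medians of 11.3% and 6.34%. The same held for 69.6% of all genes tested, with medians of 14.6% and 9.02%. In bulk tissue, fewer cells of a type and less RNA per cell cannot be told apart.

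No step of the urea cycle passed the test as reported. Cps1, which makes carbamoyl phosphate from ammonia in mitochondria (chromosome 1, 67123026 to 67231259 in GRCm38), came nearest. Its levels were 156, 102 and 152 FPKM in the HFD libraries and 206, 174 and 226 FPKM in the BT libraries. All BT values of Cps1 were above all HFD values, with HFD replicate 2 the lowest, and the change was 0.58 ± 0.18 (SE, limma, adjusted p = 0.062). It passed with TPM totals over the genes above 0 in all libraries (0.72, adjusted p = 0.0407). Its activator comes from Nags, the N-acetylglutamate synthase, which stood at 30.4 ± 2.93 and 34.6 ± 2.20 FPKM (SD, n = 3 each). Otc, which makes citrulline, was at 298 ± 14.4 FPKM with HFD and 309 ± 16.9 FPKM with BT. Ass1 and Asl, which build and split argininosuccinate, did not pass, with differences of 0.11 (95% interval -0.13 to 0.36) and -0.12 (-0.42 to 0.19). Arg1, the arginase that releases urea, gave -0.02 (-0.42 to 0.37), and its HFD values of 431, 632 and 692 FPKM enclosed the BT values of 570, 536 and 589 FPKM. Thus 5 of the 6 urea cycle genes had overlapping groups, as did 6360 of the 10476 genes tested. The median difference of the 6 was 0.08, near the 0.07 of all genes.

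The genes that feed ammonia and nitrogen into the cycle had small positive differences. Glud1, glutamate dehydrogenase, differed by 0.33 ± 0.17 (adjusted p = 0.206 by limma) and Gls2, the liver glutaminase, by 0.27 ± 0.13 (adjusted p = 0.191). Gls2 passed with TPM totals over the genes above 0 in all libraries (0.41, adjusted p = 0.0449). Glud1 stood at 366, 236 and 342 FPKM with HFD and 371, 373 and 428 FPKM with BT, and the low value of HFD replicate 2 sets much of its spread.

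Of the 5 transaminases Got2 rose. Got2 is the mitochondrial aspartate aminotransferase (chromosome 8, 95864134 to 95888547), a partner of the cytosolic Got1 in the malate-aspartate shuttle. Its levels were 239, 210 and 224 FPKM with HFD and 293, 305 and 294 FPKM with BT. The groups were apart with the BT values close together, and the mean was 1.33 times as high with BT (0.41 ± 0.10, adjusted p = 0.0325 by limma). Got1 was at 64.3 ± 4.37 and 70.4 ± 7.47 FPKM (SD, n = 3 each), a difference of 0.13 that did not pass. The ratio of Got2 to Got1 within a library, which no scaling of the library can change, was 3.77, 3.47 and 3.25 with HFD and 4.25, 3.89 and 4.62 with BT; this pair was chosen after its values were seen and is a description. Gpt and Gpt2, the cytosolic and mitochondrial alanine aminotransferases, differed by 0.23 (adjusted p = 0.181) and 0.15 (adjusted p = 0.443). Agxt, the alanine-glyoxylate aminotransferase, differed by -0.05 (adjusted p = 0.773). The call of Got2 was lost with median-of-ratios scaling (adjusted p = 0.0739) and with no filter on low values (0.0511), as well as without HFD replicate 2 (0.0599), without BT replicate 3 (0.0904) and without either of the other BT libraries.

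Among the sulfur amino acid enzymes Ahcy rose, and the 5 members did not all lean the same way. Methionine is activated by Mat1a to the methyl donor S-adenosylmethionine, and the product left after methyl transfer is cleaved to homocysteine by Ahcy. Homocysteine is then either remethylated by Bhmt with betaine or passed by Cbs and Cth toward cysteine. Ahcy (chromosome 2, 155059310 to 155074497) stood at 598, 518 and 484 FPKM with HFD and 785, 859 and 699 FPKM with BT. Every BT value exceeded every HFD value, with a mean 1.46 times as high (0.55 ± 0.13, adjusted p = 0.03 by limma). Mat1a and Cbs also had all BT values above all HFD values, at 0.35 ± 0.11 (adjusted p = 0.0755) and 0.34 ± 0.12 (adjusted p = 0.0852), without passing. Mat1a passed with either form of TPM scaling (adjusted p = 0.0305 with totals over the genes above 0 in all libraries). Cth differed by 0.22 (adjusted p = 0.272).

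Bhmt, the most abundant of the 35 mRNAs, had lower values with BT. It was measured at 2248, 2243 and 2265 FPKM with HFD, a spread of 0.519% of the mean, and at 1963, 1799 and 1755 FPKM with BT. The groups did not overlap, yet the difference of -0.29 ± 0.11 did not pass (adjusted p = 0.111 by limma). It did pass after a correction for how FPKM in a library follows transcript length and GC content (-0.40, adjusted p = 0.0421). With TPM scaling the difference of Bhmt shrank to -0.20 (adjusted p = 0.255 by limma). With TPM totals over the genes above 0 in all libraries it was -0.15 (adjusted p = 0.351). Set against Bhmt in the same library, Ahcy was at 0.266, 0.231 and 0.214 with HFD and 0.4, 0.478 and 0.398 with BT. The ratio of Mat1a to Bhmt was 0.562, 0.525 and 0.535 with HFD and 0.722, 0.872 and 0.952 with BT. Both ratios separated the diets in all 6 libraries. Of the 9 ratios computed between members, 2 overlapped: Ftcd to Hal ran from 1.67 to 2.72 with HFD and 2.62 to 2.95 with BT, and Cps1 to Arg1 from 0.161 to 0.361 and 0.324 to 0.383. The pairs were chosen after the values were seen, and with 3 libraries against 3 an exact two-sided permutation test could not go below p = 0.1. Ahcy missed the threshold with median-of-ratios scaling (adjusted p = 0.0716) and with no filter on low values (0.0684), and also without HFD replicate 2 (0.0726), HFD replicate 3 (0.0555), BT replicate 1 (0.118) or BT replicate 2 (0.111).

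The 250 bases before the RefSeq start of Ahcy and Ftcd (GRCm38.p6) are shown as the upstream sequence of the higher genes whose windows hold no annotated exon. Ahcy lies on the minus strand at chr2:155074498-155074747 and Ftcd on the plus strand at chr10:76575398-76575647. Capitals mark matches on either strand to one of the motifs searched in all windows. These were the TATA box letters TATAAA, the CCAAT box, the GC box letters GGGCGG, the CRE core TGACG, the HNF4 motif CAAAGTCCA and the C/EBP-ATF motif TGATGNAA; none of them overlapped another in these windows.
Ahcy: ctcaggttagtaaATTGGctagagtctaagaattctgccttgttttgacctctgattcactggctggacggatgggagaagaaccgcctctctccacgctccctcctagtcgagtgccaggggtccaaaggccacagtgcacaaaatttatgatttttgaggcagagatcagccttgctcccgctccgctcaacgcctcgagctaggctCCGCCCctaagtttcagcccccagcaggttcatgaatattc
Ftcd: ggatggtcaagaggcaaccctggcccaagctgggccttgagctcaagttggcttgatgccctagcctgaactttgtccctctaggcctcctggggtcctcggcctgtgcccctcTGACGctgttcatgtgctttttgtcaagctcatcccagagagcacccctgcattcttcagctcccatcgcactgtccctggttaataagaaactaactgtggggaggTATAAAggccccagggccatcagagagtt
The Ahcy window holds CCAAT and GGGCGG, both on the opposite strand, with no TATAAA. The Ftcd window holds TATAAA, starting 29 bases before the RefSeq start, and TGACG. Over the 32851 windows of the table, TATAAA occurred in 12.4%, CCAAT in 33.8%, GGGCGG in 32.7%, TGACG in 17.8%, TGATGNAA in 3.45% and CAAAGTCCA in 0.384%. Of the 26 members with a window, 5 held TATAAA, 12 CCAAT, 9 GGGCGG, 2 TGACG, 1 TGATGNAA and none CAAAGTCCA. These matches are letters only and say nothing of binding.

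**Figure D2:**
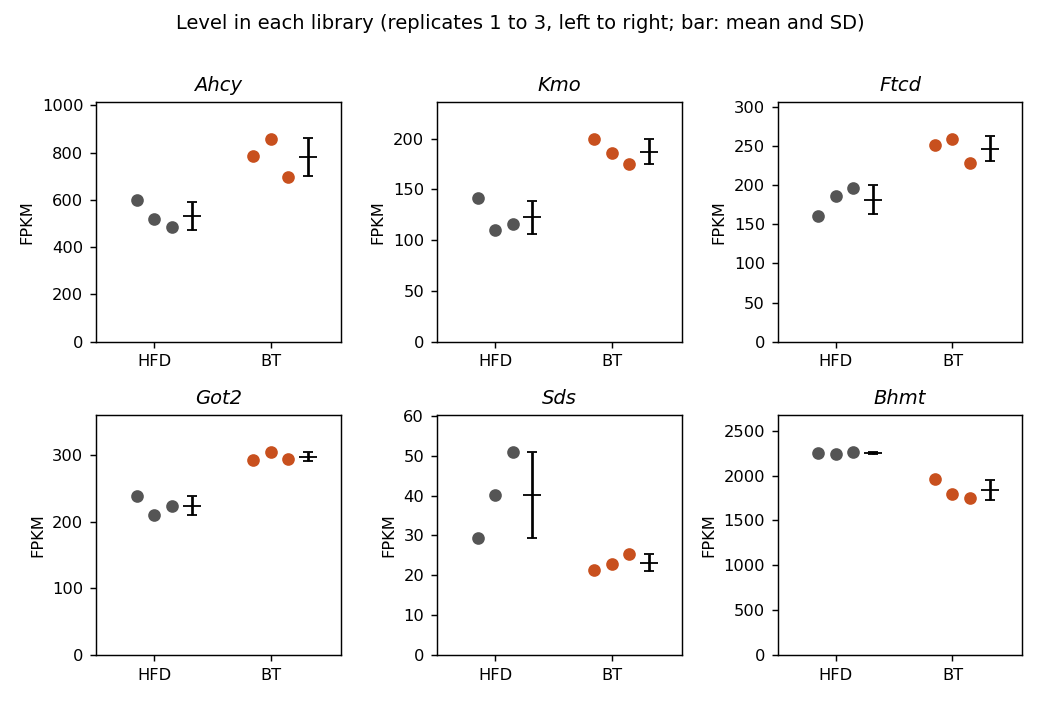
Level in FPKM of the 5 genes past the threshold and of Bhmt in each library, with the mean and SD of 3 libraries as bars; every axis starts at 0. BT points lie above all HFD points for Ahcy, Kmo, Ftcd and Got2 and below them for Sds and Bhmt.

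Of the 7 enzymes of aromatic amino acid breakdown, Kmo rose. Tryptophan is opened by Tdo2 in the liver, Afmid turns the product into kynurenine, and this is hydroxylated by Kmo and carried on by Kynu and Haao toward quinolinate and NAD. Kmo (chromosome 1, 175620381 to 175662116) was at 141, 110 and 116 FPKM with HFD and 200, 186 and 176 FPKM with BT. The lowest BT value was above the highest HFD value, and the mean was 1.53 times as high (0.61 ± 0.12, adjusted p = 0.0186 by limma). Of the other members of the route none passed. Tdo2 was at 840, 523 and 672 FPKM with HFD and 668, 673 and 742 FPKM with BT, so the groups overlapped and the means of 678 and 694 FPKM were close. Kynu differed by 0.18 (adjusted p = 0.373) and Haao by -0.26 (adjusted p = 0.223). Kmo kept its call in all 10 alternative settings that used all libraries, and lost it without BT replicate 1 (adjusted p = 0.0902) and without BT replicate 2 (0.0658).

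In tyrosine breakdown no member passed. Hgd, homogentisate dioxygenase, stood at 317, 297 and 312 FPKM with HFD and 403, 380 and 375 FPKM with BT, and these groups were apart (0.32 ± 0.10, adjusted p = 0.0574 by limma). It passed once the length and GC trend was removed (0.50, adjusted p = 0.0248), and by a little with TPM scaling, a filter of 5 FPKM or array weights. Tat, the transaminase at the start of the route and a classic target of glucocorticoids and glucagon, gave a difference of 0.00 with a 95% interval of -0.39 to 0.39. Fah, at the end of the route, was at 463 ± 38.3 and 486 ± 34.3 FPKM (SD, n = 3 each).

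In histidine breakdown the mRNA of the last enzyme rose and those of the first 3 did not pass. Ftcd (chromosome 10, 76575648 to 76590338), which hands the formimino group of histidine to folate, stood at 161, 187 and 197 FPKM with HFD and 252, 260 and 229 FPKM with BT. The groups did not overlap, and the mean was 1.36 times as high with BT (0.44 ± 0.11, adjusted p = 0.0385 by limma). Hal, Uroc1 and Amdhd1, which act before it, differed by -0.01, 0.08 and 0.04, and the smallest adjusted p of the 3 was 0.667. Hal, histidine ammonia-lyase, had 95% bounds of -0.33 and 0.32. Ftcd missed the threshold with median-of-ratios scaling (adjusted p = 0.0849) and with no filter on low values (0.0679). It also missed it without HFD replicate 1 (0.0577), HFD replicate 2 (0.0693), BT replicate 3 (0.0709), BT replicate 1 (0.14) or BT replicate 2 (0.133).

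Sds, the serine dehydratase that turns serine into pyruvate and ammonia, was the member that fell. Its gene lies on chromosome 5, 120476526 to 120483932. Its levels were 29.3, 40.1 and 51.0 FPKM in the HFD libraries and 21.3, 22.8 and 25.4 FPKM in the BT libraries. HFD replicate 1 was closest to the BT values, and the BT mean was 0.577 times the HFD mean (-0.74 ± 0.18, adjusted p = 0.0376 by limma). The value is uncertain, since exons of Plbd2 and of an antisense model cover 29.6% of its exon bases and no strand setting is given. With the length and GC trend removed the difference was -0.43 (adjusted p = 0.212). The call was also lost with TPM scaling (-0.65, adjusted p = 0.0571), though not with totals over the genes above 0 in all libraries (-0.60, adjusted p = 0.0406), and it was lost with no filter on low values (adjusted p = 0.0899) and without HFD replicate 2 (0.103), HFD replicate 3 (0.0597), BT replicate 1 (0.129), BT replicate 2 (0.0999) or BT replicate 3 (0.0641).

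Ornithine, proline and lysine breakdown had no member past the threshold. Prodh, proline dehydrogenase, and Aass, which starts lysine breakdown, each had BT values above all HFD values, with differences of 0.34 ± 0.12 (adjusted p = 0.093 by limma) and 0.34 ± 0.11 (adjusted p = 0.0753). Both passed with TPM totals over the genes above 0 in all libraries (adjusted p = 0.033 and 0.0421). Prodh stood at 88.7, 97.8 and 78.6 FPKM with HFD and 106, 125 and 106 FPKM with BT. Oat, ornithine aminotransferase, which unlike most members is strongest in hepatocytes around the central vein, overlapped between the diets at 1254 ± 239.8 and 1399.8 ± 106 FPKM (SD, n = 3 each).

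Both branched-chain members, the E1 subunits of the branched-chain ketoacid dehydrogenase, did not pass. Bckdha was at 184 ± 16.3 FPKM with HFD and 182 ± 11.4 FPKM with BT (SD, n = 3 each), with a difference of -0.01 and a 95% interval of -0.26 to 0.23. B3gnt8, which is read in the other direction, shares 61.7% of its exon bases, so its level is uncertain. Bckdhb was at 79.9 ± 3.51 and 75.8 ± 3.49 FPKM, a difference of -0.08 (-0.29 to 0.14). Side by side, the median differences were 0.08 for the urea cycle (6 genes), 0.07 for aromatic (7 genes), 0.34 for sulfur (5 genes) and -0.04 for branched-chain amino acids (2 genes). Genes are not replicates, so these medians were not tested against each other. Correcting for length and GC content put the urea cycle median at 0.22 and the branched-chain median at 0.16.

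The wider pathway was followed in 134 other genes, of which 132 were in the table and 115 passed the filter. Of these, 19 rose and 5 fell, which is 20.9% against 13.3% of all genes. The count of higher genes was 32 with TPM totals over the genes above 0 in all libraries, 8 with median-of-ratios scaling, 2 when BT replicate 1 was left out, 3 for BT replicate 2, 8 for BT replicate 3, 10 for HFD replicate 2 and 12 for HFD replicate 3. The count of lower genes was 2 without BT replicate 1, and 3 without BT replicate 2 or BT replicate 3 or with TPM scaling, and 2 after the length and GC correction. With median-of-ratios scaling it was 5. The share called over all genes moved as well. It was 18% with the TPM totals over the genes above 0 in all libraries and 12.7% with median-of-ratios scaling. Without BT replicate 1, 2 or 3 it was 1.65%, 3.13% or 5.64%, and without HFD replicate 2 or 3 it was 5.89% or 14.7%. The 20.9% is thus a value of the reported fit only, and the genes were not tested as a set. Of the 24 genes, Ethe1, Cebpb and Sik1 passed whichever of the 6 libraries was left out.

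In the aromatic routes 5 of 14 other genes rose and 1 fell, or 42.9%, against 13.3% of all genes tested. This list and those below are short and were not tested as sets. The share over all genes also depends on the filter, and was 20.1% with a filter of 5 FPKM. Afmid, the formamidase that makes kynurenine just before Kmo, stood at 57.6, 60.7 and 44.3 FPKM with HFD and 103, 105 and 91.3 FPKM with BT (0.88 ± 0.14, adjusted p = 0.0104 by limma). Other exons cover 46.6% of its exon bases, which makes it uncertain. Ido2, a relative of the tryptophan-opening enzymes, rose by 0.57, and Kyat3 and Aadat, which can transaminate kynurenine, by 0.58 and 0.38. Pcbd1, which recycles the pterin cofactor of aromatic amino acid hydroxylases, fell from 448 ± 58.6 to 261 ± 5.82 FPKM (SD, n = 3 each; -0.77 ± 0.12, adjusted p = 0.01). Hpd, the enzyme between Tat and Hgd, is listed at 0 in all 6 libraries, which can be a failed estimate. Pcbd1 and Afmid missed the threshold by a little without BT replicate 1 (adjusted p = 0.0532 each) and passed without any other library. Ido2, Kyat3 and Aadat kept their calls only without HFD replicate 1, and missed the threshold when any other library was left out. Kyat3 also missed it after the length and GC correction (0.0722).

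Among 22 other branched-chain genes 6 rose and 1 fell, or 31.8%, against 13.3% of all genes tested. Dbt, the E2 core of the same dehydrogenase as those E1 subunits, stood at 21.6, 14.5 and 16.6 FPKM with HFD and 34.0, 33.6 and 29.2 FPKM with BT (0.86 ± 0.15, adjusted p = 0.0138 by limma). Ivd, the dehydrogenase of the leucine route, went from 93.8 ± 4.99 to 147 ± 17.9 FPKM (SD, n = 3 each, adjusted p = 0.0152). Bcat2, the mitochondrial branched-chain transaminase, rose by 0.40, Mccc1, a subunit of methylcrotonyl-CoA carboxylase, by 0.37, Acadsb by 0.56 and Aldh6a1 by 0.55. Mcee, the epimerase of methylmalonyl-CoA, fell by 0.49. Dbt and Ivd missed the threshold without BT replicate 1 (adjusted p = 0.0651 and 0.0763), as did the other 5 (0.119 to 0.166). All of them also missed it without BT replicate 2, and the other 5 without BT replicate 3. Bcat2 and Mccc1 missed it without HFD replicate 1, Mccc1, Acadsb and Mcee without HFD replicate 2, and Bcat2, Acadsb and Mcee without HFD replicate 3. The length and GC correction ended the calls of Mccc1 (0.14, adjusted p = 0.27), Acadsb (0.36, adjusted p = 0.106) and Mcee (-0.12, adjusted p = 0.407), and Mcee also missed it with TPM totals over the genes above 0 in all libraries (0.0718).

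In the sulfur and methyl routes 1 of 19 other genes fell and none rose, or 5.26%, against 13.3% of all genes tested. Ethe1, the persulfide dioxygenase of hydrogen sulfide breakdown, went from 24.2 ± 3.08 to 13.5 ± 0.751 FPKM (-0.79 ± 0.12, adjusted p = 0.0091 by limma) and passed without each library in turn. Cdo1, the cysteine dioxygenase, had BT values below all HFD values without passing (-0.34, adjusted p = 0.0652). Gnmt, the abundant glycine methyltransferase of liver, is listed at 0 in all libraries.

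**Figure D3:**
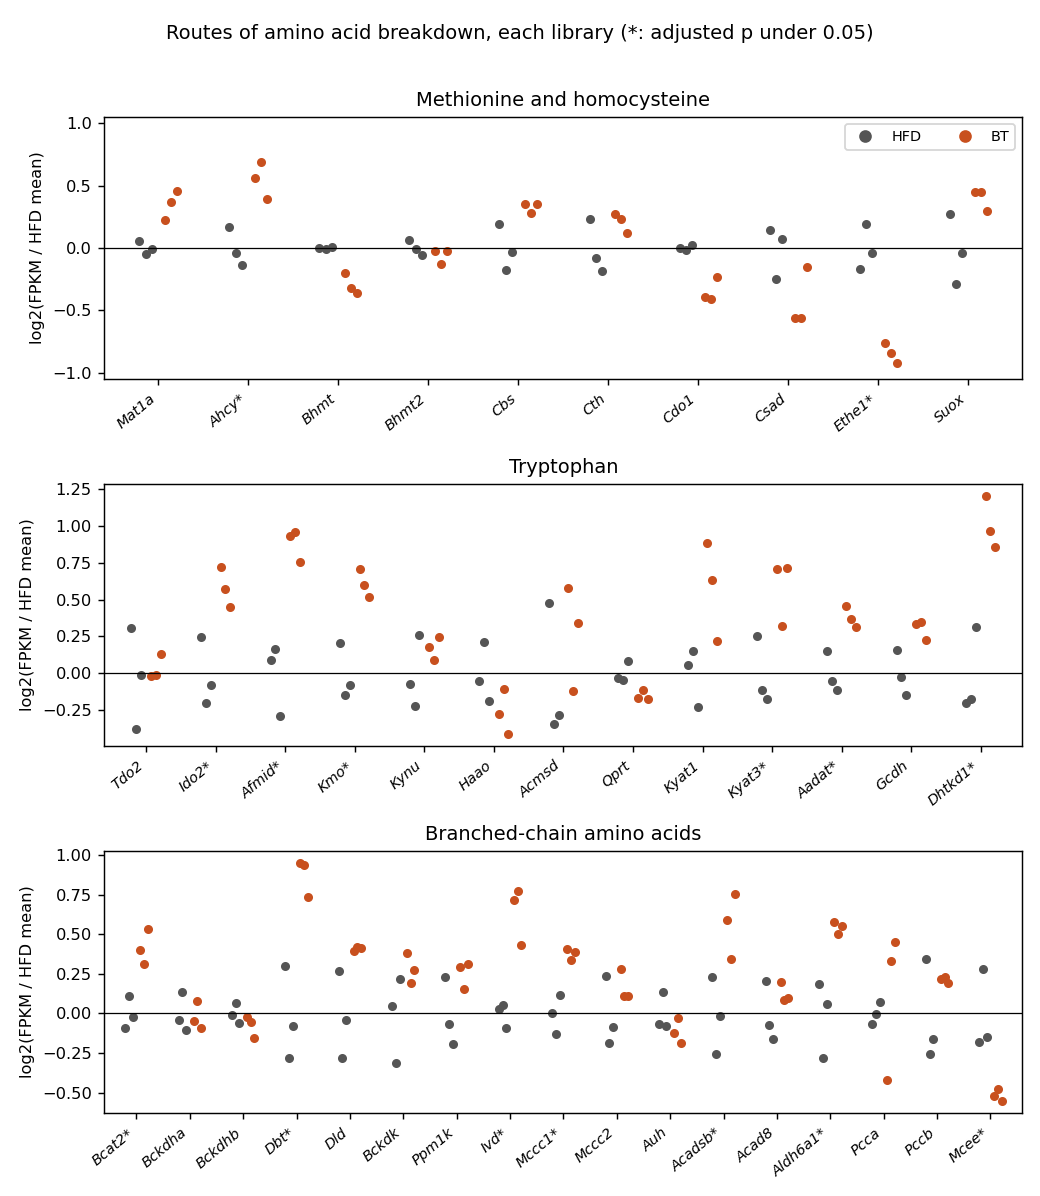
Level of each gene in each library as log2 of FPKM over the HFD mean, along the methionine, tryptophan and branched-chain routes, with HFD in grey and BT in orange; asterisks mark an adjusted p under 0.05. The BT points of Ahcy lie above 0 and those of Bhmt and Ethe1 below it, and those of Afmid, Kmo and Dbt lie above all HFD points while Bckdha and Bckdhb overlap.

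Elsewhere in the pathway, 4 of 14 genes of proline, lysine, histidine and asparagine handling rose and none fell. That is 28.6%, against 13.3% of all genes tested. Dhtkd1, of the lysine and tryptophan route after 2-oxoadipate, went from 18.1 ± 3.84 to 36.6 ± 4.62 FPKM (SD, n = 3 each, adjusted p = 0.0113 by limma). Abat, the GABA transaminase, rose by 0.82, Aldh4a1, which follows Prodh, by 0.55, and the folate enzyme gene Mthfd1, which acts on the one-carbon units that Ftcd provides, by 0.35. Other exons cover 32.5% of the exon bases of Aldh4a1. Among 14 genes of nitrogen supply 2 rose and none fell, or 14.3%. Slc38a3, a glutamine transporter of hepatocytes, rose from 436 ± 33.1 to 642 ± 34.8 FPKM (adjusted p = 0.0174), and Slc38a4, another amino acid transporter, rose by 0.48. After the length and GC correction Abat, Aldh4a1, Mthfd1 and Slc38a4 missed the threshold (adjusted p = 0.0584, 0.083, 0.0575 and 0.0677). With 1 library left out, Abat, Aldh4a1 and Mthfd1 passed only without HFD replicate 1, and Slc38a4 only without HFD replicate 3. Slc38a3 missed the threshold without BT replicate 1 or 2, and Dhtkd1 without BT replicate 1. None of 12 genes of glycine, serine, threonine and glyoxylate passed. Shmt1 came nearest (0.31, adjusted p = 0.0796), and Sdsl, the paralog of Sds, differed by -0.31 (adjusted p = 0.147). Of 10 genes of ATF4-driven amino acid synthesis only 4 passed the filter on low values. None of the 4 passed the test, with Cebpg nearest (0.41, adjusted p = 0.0563).

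Of 16 regulators of these enzymes 2 rose and 2 fell, or 25%, against 13.3% of all genes tested. Cebpb, a C/EBP factor that acts on many amino acid breakdown genes, was at 24.4, 25.5 and 36.6 FPKM with HFD and 11.3, 11.6 and 11.1 FPKM with BT. The BT values were close together and all under the lowest HFD value (-1.25 ± 0.15, adjusted p = 0.00561 by limma). Its relative Cebpa fell from 136 ± 5.82 to 98.2 ± 3.54 FPKM (SD, n = 3 each, adjusted p = 0.0191). Both missed the threshold once the length and GC trend was removed (adjusted p = 0.113 and 0.083), and Cebpa also with TPM totals over the genes above 0 in all libraries (0.0708). Cebpa missed it too when BT replicate 1, 2 or 3 was left out. Sik1, a kinase that restrains the glucagon and cAMP response, went from 1.82 ± 0.0830 to 4.29 ± 0.138 FPKM (0.91 ± 0.11, adjusted p = 0.00561). Klf15, which drives amino acid breakdown in fasting, Gcgr, the glucagon receptor, and Hnf4a differed by -0.09, 0.02 and -0.06 (adjusted p from 0.563 to 0.927).

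Many members are periportal enzymes, so zonation genes outside the group were also read. Of 10 periportal genes tested 1 rose (Etnppl, 0.59, adjusted p = 0.0433 by limma), and of 12 pericentral genes 1 rose (Cyp1a2, 0.77, adjusted p = 0.0249). None fell. At 2 of 22 genes, or 9.09%, against 13.3% of all genes, this is near the background and no result about zonation. The medians were -0.08 and 0.23. Glul, glutamine synthetase, which traps ammonia around the central vein, was at 677 ± 181 and 671 ± 45.1 FPKM (SD, n = 3 each) and did not pass. Etnppl and Cyp1a2 both missed the threshold without BT replicate 1 (adjusted p = 0.151 and 0.0763), and Etnppl missed it after the length and GC correction (0.064). The count of higher zonation genes was 4 with TPM totals over the genes above 0 in all libraries, 0 without HFD replicate 2, BT replicate 1 or BT replicate 2, 1 without HFD replicate 3 or BT replicate 3, and 5 without HFD replicate 1, where 1 was lower.

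**Figure D4:**
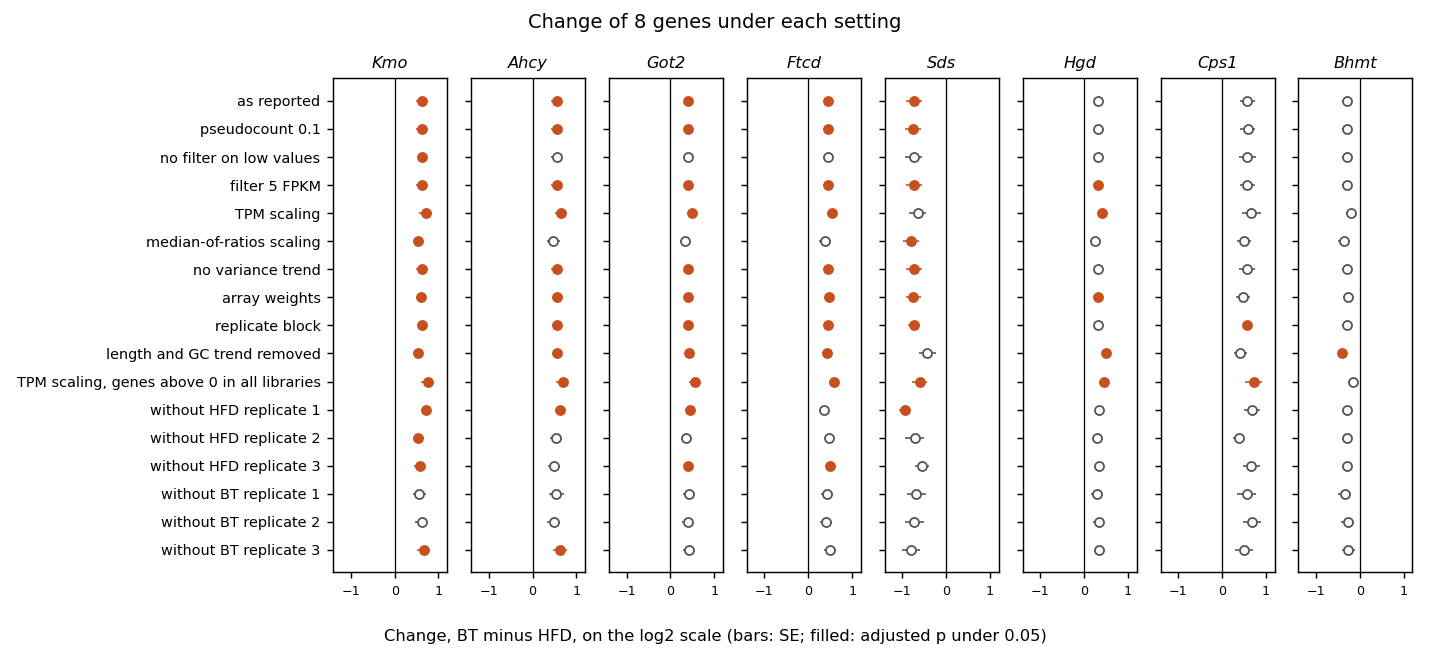
Change of 8 members under the reported fit, 10 other settings and 6 fits without 1 library, on the log2 scale with SE as bars; filled points have an adjusted p under 0.05. Every point of Kmo, Ahcy, Got2 and Ftcd lies to the right of 0 and every point of Sds to the left, and no gene is filled without BT replicate 1 or BT replicate 2.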

How the data were processed

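Liver RNA was sequenced from poly(A) libraries, 3 per diet. The authors deposited 1 table of FPKM values for 23474 Ensembl genes. CASAVA 1.8.2, STAR 2.4.0 and Cufflinks 2.1.1 are named in the submitters' processing notes; annotation, strand setting and genome build: not given in the sources used here. Identifiers were matched to GENCODE release 21 for mouse (GRCm38), which named 22671 genes and left 803 unnamed; coordinates are from that annotation. The members and lists were chosen with earlier results of these data known. The genes named are all members, every gene past the threshold in the other pathway and zonation lists (a few of these are counted but not reported here by name) and, in a list with none, the gene with the smallest p; Cdo1, Sdsl, Glul, Klf15, Gcgr, Hnf4a, Hpd, Gnmt and Ttr fall outside that rule and were singled out after their values were seen.

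The test was limma 3.58.1 in R 4.3.3 on log2(FPKM + 1), moderated with a variance trend, on genes averaging 1 FPKM or more, with Benjamini-Hochberg adjustment over all 10476 of them and a threshold of 0.05. Fold changes are on that log2 scale and understate those of low genes. The script was tested on simulated data with log2 changes of 1 and 2, of which it called 94% and 99%, and 6.76% of its calls were false. No member changed by as much as 1, so recovery of changes of the size of the members was not tested. Alternatives were a pseudocount of 0.1, no filter, a filter of 5 FPKM, TPM and median-of-ratios scaling, no variance trend, array weights, a replicate block, removal of a trend on length and GC content, and leaving out each library. TPM scaling with totals over the genes above 0 in all libraries was added after seeing the data. The table holds no counts, so depth is an estimate and no count test was run. Plots used matplotlib 3.10.9 (Python 3.11.15).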

Additional observations from a re-analysis of the deposited data

How the results depend on the processing

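With all libraries used, the 5 called members kept their direction in all 50 combinations of gene and setting and missed the threshold in 9 of them; without 1 library they missed it in 20 of 30. The 26 called genes outside the group missed it in 55 combinations with all libraries and in 82 without 1 library, with no change of direction. The cause was not tested. Depth is only estimated, the table gives no counts, and 3 libraries a diet limit the precision.

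With no filter on low values the calls over all genes fell to 200 higher and 345 lower, those of members to 1 higher and 0 lower, of other pathway genes to 8 higher and of zonation genes to 0 higher. TPM scaling gave 7 members higher and 0 lower, 3 other pathway genes lower, a median change of members of 0.24 and a branched-chain median of 0.046. Median-of-ratios scaling gave 1 member, 8 other pathway genes and 1 zonation gene higher, and all genes split into 448 higher and 884 lower, against 614 and 557 with TPM scaling. TPM totals over the genes above 0 in all libraries, chosen after seeing the data, gave 1348 genes, 10 members, 32 other pathway genes and 4 zonation genes higher, 3 other pathway genes lower, a median change of members of 0.29, and medians of 0.22 for urea cycle, 0.21 for aromatic and 0.095 for branched-chain members. Removing the length and GC trend gave 446 genes lower, 2 other pathway genes lower, a urea cycle median of 0.22 and a branched-chain median of 0.16.

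Same-numbered libraries of the diets had correlations of 0.163, 0.097 and 0.147 in their deviations from the group means, and each correlated best with its own number, a hint from the data and not the design. With the replicate block 859 genes were higher and 949 lower, with 5 members higher and 1 lower (Cps1 was added, adjusted p = 0.0171 by limma), 24 and 7 other pathway genes, and 4 and 1 zonation genes.

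Without 1 library the counts ran from 48 to 857 higher and 125 to 816 lower over all genes, 0 to 4 and 0 to 1 for members, 2 to 26 and 2 to 5 for other pathway genes, and 0 to 5 and 0 to 1 for zonation genes. The median change of members ran from 0.10 to 0.16, that of the urea cycle, aromatic, sulfur and branched-chain steps from 0.04 to 0.12, 0.08 to 0.15, 0.25 to 0.38 and -0.09 to 0.01.

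Changes that reversed in sign were all of members that did not pass. With median-of-ratios scaling these were Otc (-0.017), Tat (-0.071), Fah (-0.0022), Tdo2 (-0.013) and Amdhd1 (-0.033). With TPM scaling they were Arg1 (0.070), Agxt (0.042), Hal (0.084), Bckdha (0.077) and Bckdhb (0.016), and with its totals over the genes above 0 in all libraries Asl (0.025), Arg1 (0.12), Agxt (0.090), Hal (0.13), Bckdha (0.13) and Bckdhb (0.064). With array weights they were Tat (-0.036), Tdo2 (-0.023), Hal (0.052) and Bckdha (0.019), and after the length and GC correction Otc (-0.037), Arg1 (0.19), Agxt (0.18), Tdo2 (-0.046), Bckdha (0.16) and Bckdhb (0.17). Without 1 library the change ran from -0.21 to 0.0077 for Asl, -0.23 to 0.11 for Arg1, -0.19 to 0.14 for Tat, -0.11 to 0.23 for Tdo2, -0.15 to 0.079 for Hal, -0.021 to 0.16 for Uroc1, -0.0081 to 0.082 for Amdhd1 and -0.066 to 0.055 for Bckdha.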
